A study of Mus musculus with 2 samples.

Results

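Tmem267, Rbm20 and Asap3 are 3 mouse genes that each hold a fixed 1 kb window with a higher CpG methylation level in the haploid embryonic stem cell line A129-2 than in the line AOS-14. They were placed by RefSeq position and extended by 5 kb on each side. They are 3 of 27788 RefSeq genes with at least 5 compared CpGs in that span, and hold 307 of the 1030368 CpGs compared. A CpG was compared where it had at least 10 reads in both libraries. Its level is the percentage of reads that were methylated. Differences are given in points, positive where A129-2 was higher. The genes were chosen from these same levels, so levels and differences inside them are a description and carry no test.

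The strain of A129-2 is 129Sv and that of AOS-14 is C57BL/6, and each line gave 1 library of genomic DNA. Both were derived by cell sorting from embryos labelled AG-haploid and grown in embryonic stem cell medium, with no further treatment named. Haploid embryonic stem cells carry a single chromosome set. With 1 library per line there is no replicate check, and line, strain and library cannot be told apart. By its title the series is reduced representation bisulfite sequencing, in which DNA is cut at CCGG, while the protocol names capture of selected regions. Both describe bisulfite conversion, which turns unmethylated cytosine into a base read as T.

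The A129-2 library held 153035567 read calls at CpGs and the AOS-14 library 178315194, with medians of 79 and 97 reads at compared CpGs. Mean levels over all compared CpGs were 9.48% and 14.998%. The median depth ratio (A129-2 reads divided by AOS-14 reads) was 0.806 over CpGs and 0.841 over windows.

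Methylation of the cytosine in CpG is kept through cell division by maintenance methyltransferases. CpG-dense promoters mostly lack it, whereas CpG-poor sequence and gene bodies usually carry it, and pluripotent cells in some culture conditions carry little. Tmem267 encodes a transmembrane protein about which little is known. Rbm20 encodes an RNA-binding splicing regulator of heart and skeletal muscle, best known for controlling which exons of titin (Ttn) are kept. Asap3 encodes a GTPase-activating protein for Arf proteins, the small GTPases of membrane traffic and the actin cytoskeleton.

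The higher segment of Tmem267 lies at an annotated start site, so its letters are shown first. RefSeq (GRCm38.p6, the assembly behind mm10) gave a promoter window for 2 of the 3 members, Rbm20 having no entry. In the window chr13:119488223-119488522, plus strand, which runs up to and past the Tmem267 start site at 119488473, capitals mark the 32 CpGs of the higher segment. The window chr13:119488335-119488634, minus strand, belongs to the start site at 119488384 of the overlapping lncRNA gene 3110070M22Rik, and its capitals mark the 7 compared CpGs that were lower in A129-2. It is shown for the edge at which the direction turns. In the window chr4:136206115-136206414, plus strand, of the Asap3 start site at 136206365, capitals mark all 6 compared CpGs.
Tmem267: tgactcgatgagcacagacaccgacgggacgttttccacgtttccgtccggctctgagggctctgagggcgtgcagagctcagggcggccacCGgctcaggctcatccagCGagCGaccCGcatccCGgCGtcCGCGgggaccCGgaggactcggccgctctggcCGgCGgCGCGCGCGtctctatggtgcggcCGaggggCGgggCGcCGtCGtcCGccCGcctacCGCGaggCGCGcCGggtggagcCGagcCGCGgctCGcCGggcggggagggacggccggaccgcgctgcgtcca
3110070M22Rik: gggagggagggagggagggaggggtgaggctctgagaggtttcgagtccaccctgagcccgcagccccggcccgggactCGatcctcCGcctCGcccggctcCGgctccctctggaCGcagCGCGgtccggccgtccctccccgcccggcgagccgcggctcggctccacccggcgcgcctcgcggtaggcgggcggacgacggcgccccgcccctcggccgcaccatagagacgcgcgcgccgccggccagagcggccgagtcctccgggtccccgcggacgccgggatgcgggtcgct
Asap3: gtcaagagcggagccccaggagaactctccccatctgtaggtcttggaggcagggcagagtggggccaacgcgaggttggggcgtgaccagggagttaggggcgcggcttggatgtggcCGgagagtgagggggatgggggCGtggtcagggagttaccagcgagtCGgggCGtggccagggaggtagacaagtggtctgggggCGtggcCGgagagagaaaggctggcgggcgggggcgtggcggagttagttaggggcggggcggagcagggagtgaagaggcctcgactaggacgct

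The Tmem267 window held 50 CpGs and 8 CCGG motifs (searched as CCGG, which reads the same on both strands). Its CpG count was above that of 99.1% of the 32851 RefSeq promoter windows, whose median was 7. CCGG was present in 52.78% of those windows. The 3110070M22Rik window held 48 CpGs and 10 CCGG, and the Asap3 window 21 CpGs and 2 CCGG. A second Tmem267 window, that of its other start site at 119488086, held 22 CpGs of which 0 were compared. Counting each window by itself, all 87 compared CpGs sat on the letters CG. In the Tmem267 window 44 CpGs were compared, with 35 higher and 9 lower in A129-2 and mean levels of 54.4% and 15.7%. In the Asap3 window the means were 6.20% and 5.004%, with 2 CpGs higher and 4 lower.

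Only Tmem267 had a higher mean level over the whole gene, and not when each read had equal weight (-0.44 points). Its 76 compared CpGs had a mean of 39.9% in A129-2 and 24.9% in AOS-14, a difference of 14.95 points that 6 genes exceeded. Rbm20, with 149 CpGs, had means of 8.95% and 9.78%, and Asap3, with 82 CpGs, 11.9% and 12.2%. Those differences of -0.83 and -0.33 points are on the lower side. For Rbm20 and Asap3 the label "higher in A129-2" therefore describes a segment, not the gene. Over all genes tested, 3.97% were higher in A129-2 by any size and 96.0% lower, with a median difference of -3.34 points. Called means an adjusted p under 0.05 (Fisher's exact test on reads, two-sided, Benjamini-Hochberg over all units) and at least 25 points, and compares the reads of these 2 libraries. For windows and genes the test used summed reads, while the points and their direction came from the mean of CpG levels. These 2 measures can differ in sign, as they do for Tmem267. By that rule 0 of the 3 genes were called, against 0.0036% of all genes called higher and 1.13% called lower.

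Among single CpGs, 30 of the 307 were called higher and 11 lower, beside 0.0297% and 4.08% of all compared CpGs. The 30 were 25 in Tmem267, 3 in Rbm20 and 2 in Asap3, and since the windows with these CpGs chose the genes, nothing is read from the shares. By any size 114 of the 307 were higher and 158 lower, with 20.3% and 62.4% for all compared CpGs. A segment was then taken in each gene as the run of neighbouring compared CpGs with the greatest summed difference after 10 points were subtracted from each. The 3 segments hold 51 CpGs, and all but 1 of the called higher CpGs lie inside them.

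**Figure D1:**
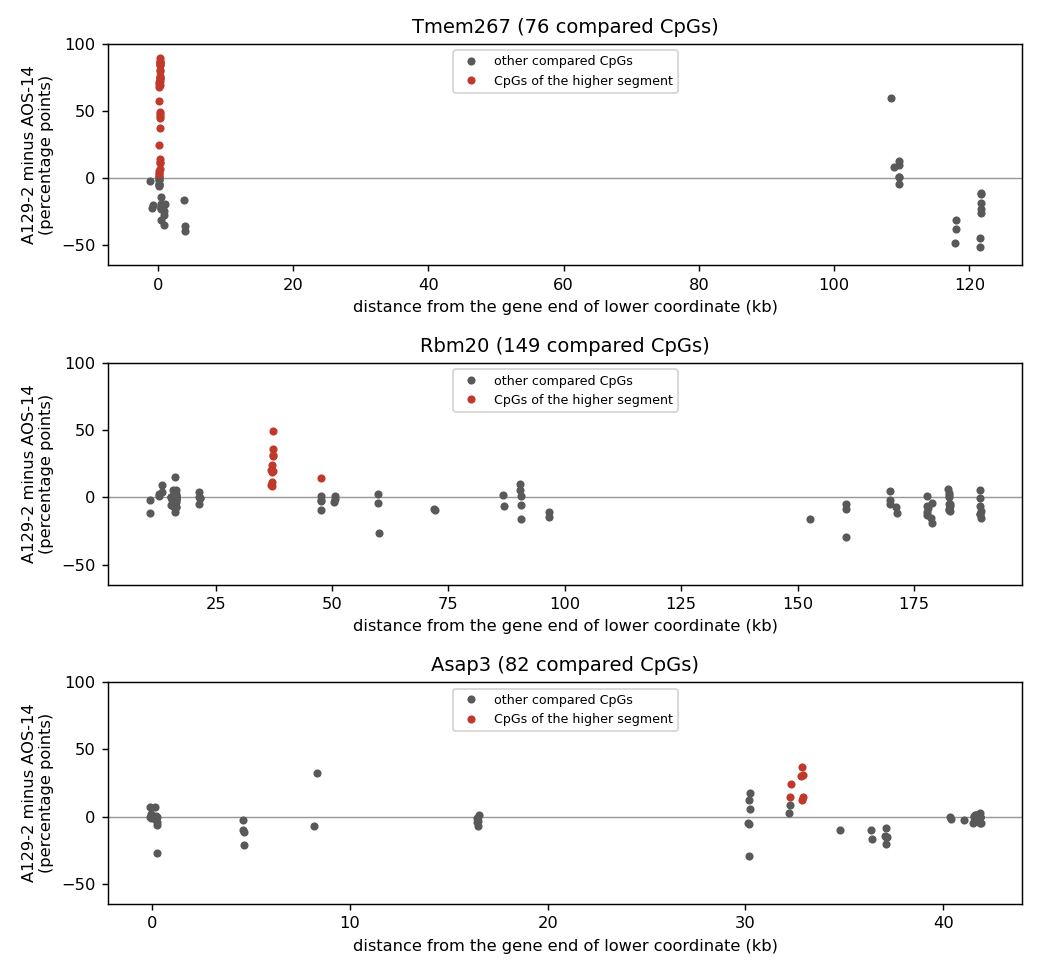
Difference in methylation level (points, positive where A129-2 was higher) at each compared CpG of Tmem267, Rbm20 and Asap3, by distance along the gene and its 5 kb. Red points are the higher segment of each gene, and most of the other points lie at or below 0.

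Tmem267 (chr13:119488086-119610459) carried the sharpest of the 3 segments. It runs from 119488315 to 119488487, 173 bp with 32 compared CpGs, 229 to 401 bp inside the gene. All 32 were higher in A129-2, at a mean of 73.96% against 18.3%. With each read given equal weight the levels were 68.8% (exact 95% interval 66.1 to 71.5, 813 of 1181 reads) and 17.1% (16.7 to 17.5, 5700 of 33346 reads). Reads are summed over CpGs here, and CpGs this close are read by the same reads, so a read can count several times. These intervals treat every count as separate. They are therefore narrower than the counting error, and cover no other error.

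The segment begins at 119488315 and ends at 119488487, both CCGG, with 100% of 15 reads and 25% of 16 in A129-2. Towards the upper end A129-2 had already fallen inside the segment, from 76.7% at 119488462 to 18.9% at 119488472. The compared CpG 7 bp below the segment, at 119488308, had 0 methylated of 62 reads in A129-2, which allows up to 4.84%, and 4.96% in AOS-14. The CpG 23 bp above it, at 119488510, was at 0.588% and 23.1%. The direction turns between these neighbouring CpGs at the upper edge. Nearby CpGs from 119488510 to 119488531 had 126 to 172 reads in A129-2 and 50 to 66 in AOS-14.

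Inside the segment the levels were read between neighbouring listed CCGG sites. From 119488315 to 119488349 the 3 inner CpGs were close in level, at 33.2% and 28.9%. From 119488349 to 119488366 the 3 inner CpGs stood at 96.5% and 26.5%. From 119488388 to 119488462, 74 bp with 16 inner CpGs, the means were 90.3% and 11.9%. From 119488462 to 119488487 the 4 inner CpGs were at 22.6% and 4.92%. The core of high level in A129-2 is therefore made of the middle pair of stretches.

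The CpG at 119488435 (TCGT) departs from the core, with 47.6% against 1.08%. Its A129-2 level was 23.1% on the plus strand (13 reads) and 87.5% on the minus strand (8 reads). At 119488443 (CCGC), the CpG with the widest difference of the segment, the levels were 97.3% (37 reads) and 8.09% (1569 reads). At 119488424 (GCGG) they were 94.9% (39 reads) and 9.10% (1549 reads). The CpGs at 119488443 and 119488424 were high on either strand in A129-2.

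Levels of this size were rare in A129-2. Of all compared CpGs 554 were at 80% or more in A129-2, and 21 of them lie in the segment. Of the 48 that were also under 50% in AOS-14, 20 lie there. Of 74 CpGs higher by 50 points or more, 19 lie there. The segment was chosen on these levels, so the shares describe it only.

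The 2 libraries differed in depth at the segment as well as in level. The median was 35 reads per CpG in A129-2 and 905.5 in AOS-14, and the depth ratio was 0.0354. In the 74 bp core stretch the medians were 37 and 1575.5 reads, a ratio of 0.0232. The whole window (119488228 to 119488554, 48 CpGs, 50.2% and 16.6%) had a ratio of 0.0721, lower than in all but 0.0215% of windows. At 800 reads or more in AOS-14 there were 9135 compared CpGs, 0.887% of all, and 24 of the segment's 32 were among them. All 20 Tmem267 CpGs higher by 50 points or more had 10 to 39 reads in A129-2 and 544 to 1600 in AOS-14. All 32 also lie in runs of recurrent spacing, as do 496645 of the 1030368 compared CpGs. Recurrent spacing means that the distances between 5 neighbouring compared CpGs, each 60 bp or less, are the same at 3 or more places. A second search took all listed CpGs, asked that the bases around each CpG match too, and needed only 2 or more places. By it 6 of the 32 recur, beside 149202 of all compared CpGs. How reads that match several positions were placed is not given in the sources used here. The part of depth or of recurring sequence in the difference was not tested.

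**Figure D2:**
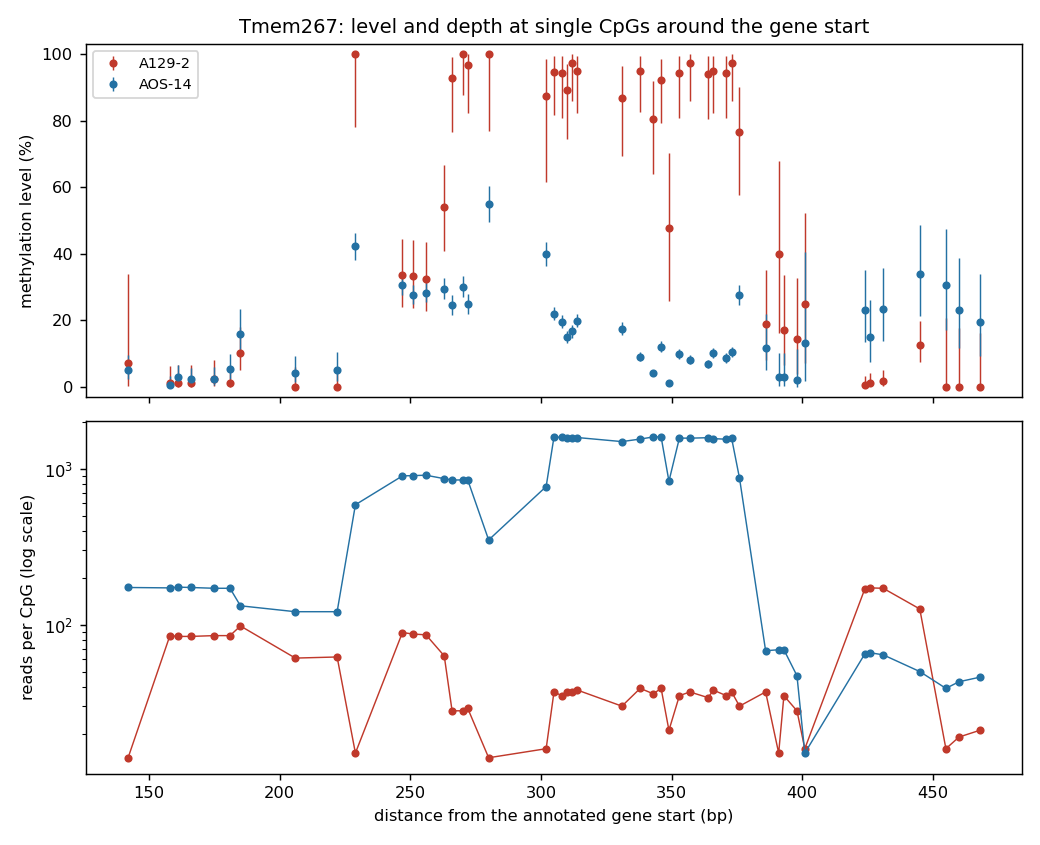
Methylation level (%, upper panel, bars are exact 95% intervals for counting error) and reads per CpG (log scale, lower panel) at compared CpGs 100 to 500 bp from the Tmem267 start in both lines. A129-2 stands near 90% over the core stretch with a median of 37 reads, where AOS-14 has 11.9% and 1575.5 reads.

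Strands were also looked at separately, using CpGs with at least 10 reads of that strand in both libraries. On the plus strand 28 of 28 segment CpGs were higher in A129-2, at means of 80.01% and 16.4%. On the minus strand 25 of 28 were higher, at 73.4% and 19.2%, and 3 were lower. Of 24 CpGs with enough reads on both strands, 21 were higher on both.

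Away from the segment Tmem267 was lower in A129-2. Its 44 other CpGs had means of 15.1% and 29.8%, with 35 lower, 9 higher, 9 called lower and 1 called higher. Their summed reads gave a depth ratio of 0.251, beside 0.884 over all compared CpGs. The 1 called higher, at 119596497, had 8 methylated of 10 reads in A129-2 and 20.04% of 544 in AOS-14. Above the segment, the window from 119489063 to 119489107 was called lower, with 7.75% and 32.8%. So was the window from 119609682 to 119609784 at the far end, with 20.7% and 47.2%. Their depth ratios were 0.543 and 0.198, the latter lower than in all but 0.28% of windows. A window at 119597663 to 119597693 was at 11.1% and 6.91% with a depth ratio of 0.111, and was not called.

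A pair of places in Tmem267 repeat the same layout. CpGs at 119491948, 119492065 and 119492087 are 117 and 22 bp apart, as are those at 119606010, 119606127 and 119606149, with the same neighbouring bases. At the first place the levels were 40%, 46.4% and 41.2% in A129-2 and 56.4%, 82.2% and 80.7% in AOS-14. At the second they were 8.33%, 40.5% and 43.5%, and 56.2%, 78.1% and 74.3%. A129-2 was lower at all 6, where the depth ratios ran from 0.0697 to 0.0976.

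The Tmem267 gene mean depended on how the CpGs were combined. Weighted by reads the difference was -0.44 points, with 23.1% and 23.5%. Without CpGs whose depth ratio lies outside the central 95% (0.297 to 2.31) it was -10.2 points, without the deepest CpGs -8.15, and without CpGs of recurrent spacing -21.4. In the segment the difference was 11.3 points in the 4 CpGs of usual depth ratio that remain and 26.4 in the 7 CpGs outside the deepest 1 percent, and no CpG was left without recurrent spacing.

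Of the genes around Tmem267, those that overlap the segment or reach it with their 5 kb were higher in A129-2. The lncRNA gene 3110070M22Rik (chr13:119487257-119488384) had 36.1% and 19.7% over 19 CpGs. The protein-coding gene 4833420G17Rik, which ends at 119486120, had 3.52% and 4.18% over 16 CpGs. With its 5 kb, which reach the segment, it had 35.5% and 15.7%. Beyond them, Nnt, which encodes a mitochondrial transhydrogenase, had 5.92% and 9.08%, and Paip1, a translation regulator, 2.87% and 4.20%, both with 5 kb. On the other side Ccl28, a chemokine gene, had 25.3% and 53.8% over 11 CpGs with 6 called lower. 1700074H08Rik had 0 compared CpGs.

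Rbm20 (chr19:53660989-53867083) held a segment with a smaller difference, at similar depth in both libraries. As found by the sum it runs from 53697789 to 53708502 with 12 CpGs, all higher, at 29.6% and 6.66%. Its last CpG is separated by a gap of 10187 bp from the others. Without it, 11 CpGs from 53697789 to 53698315, 527 bp, had 29.8% against 6.08%. With equal weight per read these were 35.1% (32.6 to 37.6, 1430 reads) and 7.03% (5.73 to 8.52, 1365 reads). Reads are again summed over CpGs, so the intervals are too narrow. The depth ratio was 1.05, near the usual.

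Within the 11 CpGs the level in A129-2 was highest in the upper stretch. At 53697789 it was 22.9% against 2.56%. In the stretch from 53698005 to 53698044 the 3 CpGs averaged 17.2% in A129-2. AOS-14 had 0 methylated reads at each of them, of 34, 90 and 87. At 90 reads this allows a level of up to 3.33% (3 reads). In the stretch from 53698246 to 53698315 the 3 inner CpGs averaged 44.0% and 5.22%, and these are the 3 called higher. The widest difference was at 53698300 (GCGC), with 57.2% of 236 reads and 7.60% of 250. The CCGG at 53698246 had 37.6% and 17.9%.

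Both strands showed the segment. On the plus strand 9 of 9 CpGs were higher, with means of 29.2% and 5.19%, and on the minus strand 9 of 9, with 34.3% and 5.66%. The 1 kb window of 9 CpGs (53698009 to 53698315) had 32.3% and 6.62% and a depth ratio of 1.02.

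Around it Rbm20 was flat or lower. The nearest compared CpG below, 15200 bp away at 53682589, had 10.6% and 11.2%, and the next compared CpG beyond the last, 41 bp on, had 2.36% and 1.05%. The 137 CpGs outside the segment had means of 7.14% and 10.1%, with 79 lower, 33 higher and 25 equal. The CpG-dense windows at 53676426 to 53676995 and 53677005 to 53677488 had 27 and 44 CpGs, at 1.99% and 2.77% and at 2.78% and 3.72%. These windows are nearly unmethylated in both lines. The window at 53838801 had 10.1% and 17.6%, and that at 53850249 had 6.38% and 13.7%.

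Asap3 (chr4:136206350-136246577) held a segment of 7 CpGs over 655 bp, from 136238627 to 136239281, 7296 bp from the upper gene end. All 7 were higher, with means of 43.5% and 19.99%. With equal weight per read they were 41.7% (37.6 to 45.8, 578 reads) and 14.04% (11.2 to 17.3, 527 reads), at a depth ratio of 1.10. Reads are summed over CpGs here too, with intervals that are too narrow. Its CpGs stand in 2 groups with 505 bp between them.

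In the first group the CpG at 136238627 had 16.7% and 2.49%, and the CCGG at 136238651 had 41.2% and 16.7%. In the second, 136239188 had 67.2% of 58 reads and 30.4% of 69 reads, and 136239281 had 61.1% and 30%. The CpG at 136239233 was low in both lines, at 16.7% and 4%. The 2 called CpGs were 136239156 and 136239188. The first had 52.5% of 238 reads in A129-2 and 22% of 50 in AOS-14, and its minus strand had 196 reads in A129-2 and 0 in AOS-14. Its depth ratio was above that of 99.8% of CpGs.

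By strand, 4 of 5 Asap3 segment CpGs were higher on the plus strand and 0 lower, with means of 41.9% and 18.3%. On the minus strand 5 of 6 were higher and 1 was lower, with 43.1% and 19.9%. The window of 5 CpGs from 136239156 to 136239281 had 49.3% and 24.2%, and a depth ratio of 1.61, above that of 95.5% of windows.

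The Asap3 run of higher CpGs is longer than the segment. From 136236542 to 136239281, 2740 bp, all 12 compared CpGs were higher, at 37.2% and 19.6%. Below it, the CpG at 136236524 went the other way, at 0.571% and 29.8%, and was called lower. A129-2 had 1 plus-strand read there and 174 minus-strand reads, AOS-14 336 and 306. The A129-2 level there thus rests almost only on the minus strand. At the next compared CpG, 136236535, A129-2 had 246 and 176. Why plus-strand reads were nearly absent at 136236524 was not tested. Outside the segment, 136214687 had 60% of 10 reads and 27.8% of 36. The 75 CpGs outside had means of 8.91% and 11.5%, with 44 lower, 21 higher and 10 equal. The window at 136243428 was lower, with 16.4% and 31.3%.

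**Figure D3:**
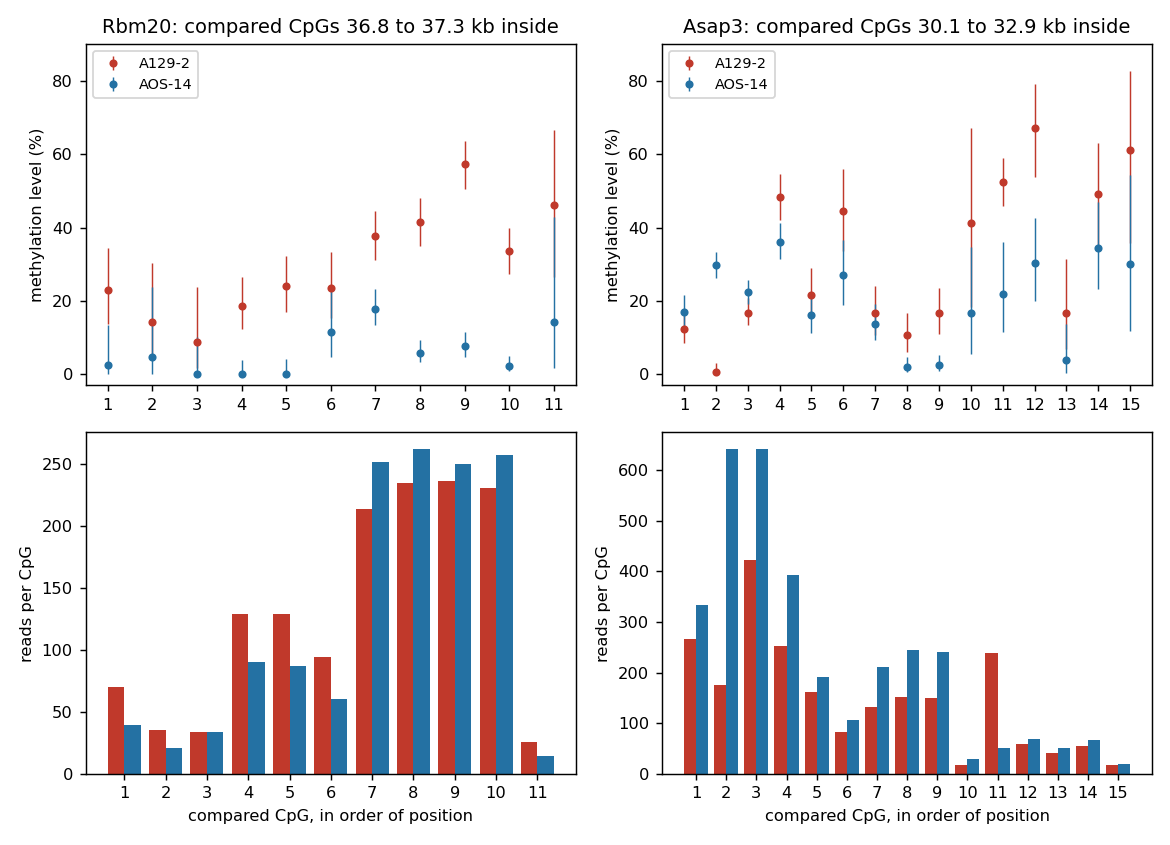
Methylation level (%, upper panels, bars are exact 95% intervals for counting error) and reads per CpG (lower panels) at compared CpGs in and beside the higher segments of Rbm20 and Asap3, in order of position. A129-2 is above AOS-14 at each Rbm20 CpG plotted, and in Asap3 the CpG at 0.571% against 29.8% lies among those plotted before the run of higher ones.

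Of the genes around Rbm20 and Asap3, the protein-coding ones had levels of 10.3% or less in both lines with 5 kb, and lncRNA genes with 2 to 4 CpGs had up to 30.2%. Near Rbm20, Smc3, a cohesin subunit, had 4.74% and 7.61% and Pdcd4, a translation inhibitor, 3.11% and 3.83%, each with 5 kb. Bbip1, a subunit of the BBSome of cilia, had 3.26% and 4.27%, and Gm30990 3.29% and 4.29%. The lncRNA gene Gm46653, inside Rbm20, had 17.1% and 13.05% over 4 CpGs. Gm30943 had 17.5% and 30.2% over 2 CpGs and Gm16299 4.84% and 19.1% over 3. Gm41863 had 4.17% and 17.0% over 2 CpGs with 5 kb, and Gm30890 and Nutf2-ps1 had 0. Near Asap3, Tcea3, a transcription elongation factor gene, had 6.08% and 10.3%, and E2f2, a cell cycle transcription factor gene, 2.84% and 2.89%. Id3, an inhibitor of basic helix-loop-helix factors, had 3.25% and 4.03%, Zfp46 3.67% and 5.10%, and Hnrnpr 4.996% and 7.68%. None of these genes with 5 kb had a CpG called higher.

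CpGs that were listed or deep enough in only 1 library differed between the members. Of 154 CpGs listed in Tmem267 4 were listed only in A129-2 and 35, 22.7%, only in AOS-14, beside 11.8% and 17.7% of all listed CpGs. Those with 10 reads only in AOS-14 had a mean of 29.9% over 15 CpGs, 9.74% of those listed. Those with 10 reads only in A129-2 had 3.58% over 7, 4.55% of those listed. Over all listed CpGs these shares were 6.52% and 1.71%, with mean levels of 20.96% and 10.99%. Of 338 in Rbm20 65 were listed only in A129-2 and 71 only in AOS-14. Of 186 in Asap3 15 were listed only in A129-2 and 54, 29.0%, only in AOS-14. In the Asap3 segment 5 of 12 listed CpGs were in the AOS-14 table alone, each with only 1 read. In the Tmem267 segment 3 of 35 had too few reads in A129-2.

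The members' windows were set beside all 51142 windows, of which 0.0137% were called higher and 5.04% lower. Of the members' 20 windows 3 were called higher and 2 lower. By any size 5 were higher and 15 lower, beside 11.7% and 88.3% of all windows. The Rbm20 and Asap3 windows lie just inside the threshold, at 25.7 and 25.2 points. Just outside it were windows on chromosome 17 at 22.3 points, on chromosome 4 at 72354579 with 21.8, and in Gm41147 on chromosome 14 with 21.7. Others called higher were in Gm30369 on chromosome 8 (49.5% and 14.8%), near Gm35352 on chromosome 3 (39.1% and 6.82%) and near Olfr891 on chromosome 9 (40.4% and 13.4%). Olfr891 encodes an olfactory receptor. Depth ratios were 0.158 for the Gm30369 window, 0.493 near Gm35352 and 0.722 near Olfr891. The Gm41147 window, outside the threshold, had 0.0671.

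**Figure D4:**
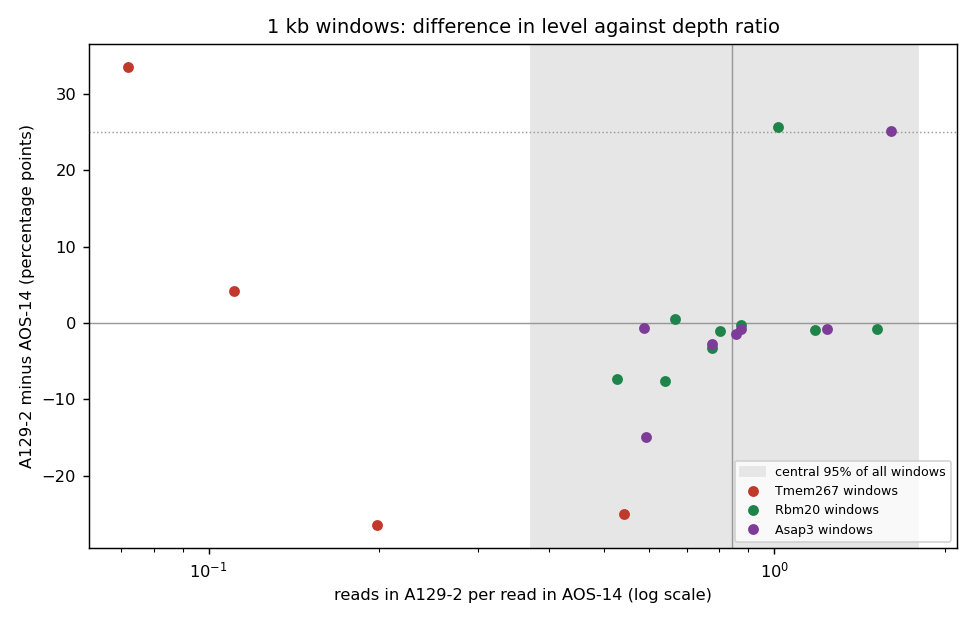
Difference in level (percentage points) against depth ratio (log scale) for 1 kb windows of the 3 genes, with the central 95% of all windows (0.372 to 1.79) shaded and a dotted line at 25 points. The Tmem267 window called higher lies far left of the shaded band at 0.0721. Tmem267 windows not called higher, at 0.111 and 0.198, also lie left of the band, and that at 0.543 lies inside it. The windows called higher in Rbm20 and Asap3 lie inside the band.

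The genes of 2 lists, each of which includes its member, were read beside all genes, of which 96.0% were lower by any size, 0.0036% called higher and 1.13% called lower. Of 27 ArfGAP and Arf genes 0 were called and 27 were lower in A129-2, with medians of 6.34% and 9.77% and a median difference of -3.21 points, beside -3.34 over all genes. The widest differences were Arap1 (-7.66 points), Arap3 (-4.92) and Arf2 (-4.72), and those nearest to 0 were Arf6 (-0.31), Asap3 (-0.33) and Arf1 (-0.65). Of 21 genes of muscle splicing and its targets 0 were called and 21 were lower, with medians of 6.47% and 9.05% and a median difference of -2.85 points. Both counts are near the shares of all genes, so nothing particular to these lists is read from them. Ttn, the titin gene that RBM20 protein splices, had 24.8% and 35.7%, the widest difference at -10.9 points. Rbfox1, a splicing regulator, followed at -8.18 points and Tnnt2, cardiac troponin T, at -7.31. Ptbp2, Pdlim5 and Srsf10 were nearest to 0, at -0.32, -0.53 and -0.54 points.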

How the data were processed

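Bisulfite reads at CpGs were used from 1 library each of A129-2 and AOS-14. Per the submitters' processing notes BSMAP and mm10 were used. Its version and the handling of duplicate reads and of reads with several positions were not given in the sources used here. As deposited by the authors, each row holds a fraction (the level) and read counts, total and methylated, also by strand, per the file headers. Levels were recomputed from the deposited counts. Positions, which start at 0 in the tables, were raised by 1.

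The minimum was 10 reads in each library for a CpG and 5 such CpGs for a window or gene. Fisher's exact test (two-sided) on reads was adjusted by Benjamini-Hochberg over all units, checked on simulated data. Intervals are exact 95% binomial, and those over several CpGs count a read once for each CpG it covers. Gene positions came from RefSeq GRCm38.p6, without strand or exons, so exon and intron positions were not used here. The members and lists were chosen with earlier results of these data known. Named are the members, genes overlapping or next to them, genes at other windows called higher, and in each list the 3 genes with the largest difference in each direction. A result that this rule selects is not reported here. Python 3.11.15, pandas 2.3.3, numpy 2.4.6, scipy 1.17.1 and numba 0.67.0 were used.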

Additional observations from a re-analysis of the deposited data

How the results depend on the processing

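Alternatives changed the minimum of reads, weighting, strand, depth, CCGG sites, segment rule and size of difference. Those leaving out CpGs with recurring spacing and bases, or CpGs over 1 kb from the rest, were added after seeing the data. With 1 library a line, depth limits only the counting error, and leaving out a library was not possible. No paired analysis was possible because each line has 1 library.

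The Tmem267 gene difference of 14.95 points became 13.7 at 5 reads, 16.6 at 20 reads, 21.4 on the plus strand, 16.2 on the minus strand, 21.6 without CCGG, 10.2 without recurring spacing and bases and 16.2 in the gene alone. It reversed to -0.44 weighted by reads, -10.2 without unusual depth ratios, -8.15 without the deepest CpGs and -21.4 without recurrent spacing. The segment difference of 55.7 became 58.6 at 20 reads, 51.7 weighted, 63.6 on the plus strand, 11.3 without unusual depth ratios, 26.4 without the deepest CpGs, 59.5 without CCGG, 52.2 without recurring spacing and bases and 60.2 with 15 points subtracted. It had no value without recurrent spacing, as no CpG was left.

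Rbm20 gene values were -0.83, then -1.88 weighted and, reversed, 0.40 without CCGG. Its segment, 22.98 points, became 27.8 weighted, 28.7 on the minus strand, 26.9 without CCGG and 27.8 with 15 points subtracted. Asap3 gene values were -0.33, then -1.29 at 5 reads, -3.96 weighted and, reversed, 0.25 on the minus strand. Its segment, 23.5 points, became 17.6 with 5 points subtracted. The cause was not tested for any of these.

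At 20 and at 30 points, 66306 and 25849 CpGs, 4919 and 1266 windows and 805 and 121 genes were called lower, against 42053, 2575 and 315. Windows called higher were 4 at 30 points and 4 at 20 reads, against 7. The Rbm20 window (25.7 points) and the Asap3 window (25.2 points) were not called at 30 points. At 20 reads the Asap3 window lost the CpG at 136239281 (18 reads in A129-2) and fell below the minimum of 5 CpGs. The Rbm20 window lost that at 53698315 (14 reads in AOS-14), and its call at 20 reads is not given here. Genes called higher were 2 at 20 points and 2 at 20 reads, against 1. Other alternatives stayed within the counting interval, which sums reads over CpGs, or within 1.5 times for counts.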

Other observations

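Near the Tmem267 segment, CpGs under the minimum of reads were left out of every comparison. At 119488193 A129-2 had 1 methylated of 2 reads and AOS-14 169 reads at 5.33%. At 119488501 A129-2 had 173 reads at 1.73% and AOS-14 6 reads at 66.7%. At 119488566 A129-2 had 0 methylated of 41 reads, which allows up to 7.32%, and the CpG was not listed for AOS-14.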
